A study of Mus musculus with 7 samples.

Results

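Chemokines are small secreted or membrane-anchored proteins that guide migrating cells, and their receptors are G protein-coupled receptors on the cells that respond. One ligand often binds several receptors, and the names (CC, CXC, CX3C, XC) follow the spacing of cysteines near the amino terminus. In skeletal muscle, chemokines are best known for drawing leukocytes into injured tissue and, for CXCL12 and its receptor CXCR4, for guiding muscle precursor cells.

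The chemokine ligands and receptors described here are the genes whose name on the array begins with Ccl, Cxcl, Cx3cl, Xcl, Ccr, Cxcr or Cx3cr and a number, control spots left out. This rule took 68 of 55681 probes, which stand for 54 genes, 35 ligands and 19 receptors. RNA came from satellite cells, which regenerate skeletal muscle, of male C57BL/6 mice aged 2, 2 and 3 months (young) or 28, 28, 29 and 30 months (geriatric). The cells were sorted from dissociated muscle as positive for integrin alpha 7 and CD34 with CD31, CD45, CD11b and Sca1 as negative gates. Their RNA was amplified by whole transcriptome amplification before labelling with Cy3. The labels do not say if mice were pooled. The p-values therefore cover only the spread among these samples. No group carried a transgene or treatment in the labels.

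Geriatric arrays 1 and 2 had the same sample name in their descriptions. For 95.4% of probes their signals differed by at most 2 combined errors, whereas the share was 59.6% to 67.0% in other array pairs. Their difference was thus about the size of the measurement error, and they were averaged as 1 sample. The comparison is therefore of 3 young with 3 geriatric samples. On each array 38052 to 41293 probes were well above background. All 11 satellite cell markers were well above background on all 7 arrays. The number of arrays limits the precision. A level is the log2 processed signal relative to the 75th percentile of its array. A difference is geriatric minus young. In such bulk samples fewer cells of a type and less RNA per cell cannot be told apart.

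Chemokine genes with signal on every array were fewer than those on the array. Of the 54 genes, 23 were well above background on all 7 arrays by at least 1 probe. These were 15 ligands (Ccl2, Ccl5, Ccl17, Ccl19, Ccl24, Ccl25, Ccl27a, Cxcl1, Cxcl9, Cxcl10, Cxcl11, Cxcl12, Cxcl14, Cxcl16 and Cx3cl1) and 8 receptors (Ccr6, Ccr8, Ccr9, Ccr10, Cxcr4, Cxcr6, Cxcr7 and Cx3cr1). A further 6 were above background on 3 to 6 arrays: Ccl11 on 6, Ccl6 and Ccl7 on 5 each, and Ccl8, Cxcl13 and Cxcr2 on 3 each. On 1 or 2 arrays there were 7 genes: Ccl12, Cxcl2, Cxcl17, Xcl1, Ccr3, Ccr4 and Cxcr5. The remaining 18 were well above background on 0 arrays, among them Ccl1, Ccl3, Ccl4, Ccl9, Ccl20, Ccl22, Ccl26, Ccl28, Cxcl3, Cxcl5, Cxcl15, Ccr1, Ccr1l1, Ccr2, Ccr7, Cxcr1 and Cxcr3.

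**Figure D1:**
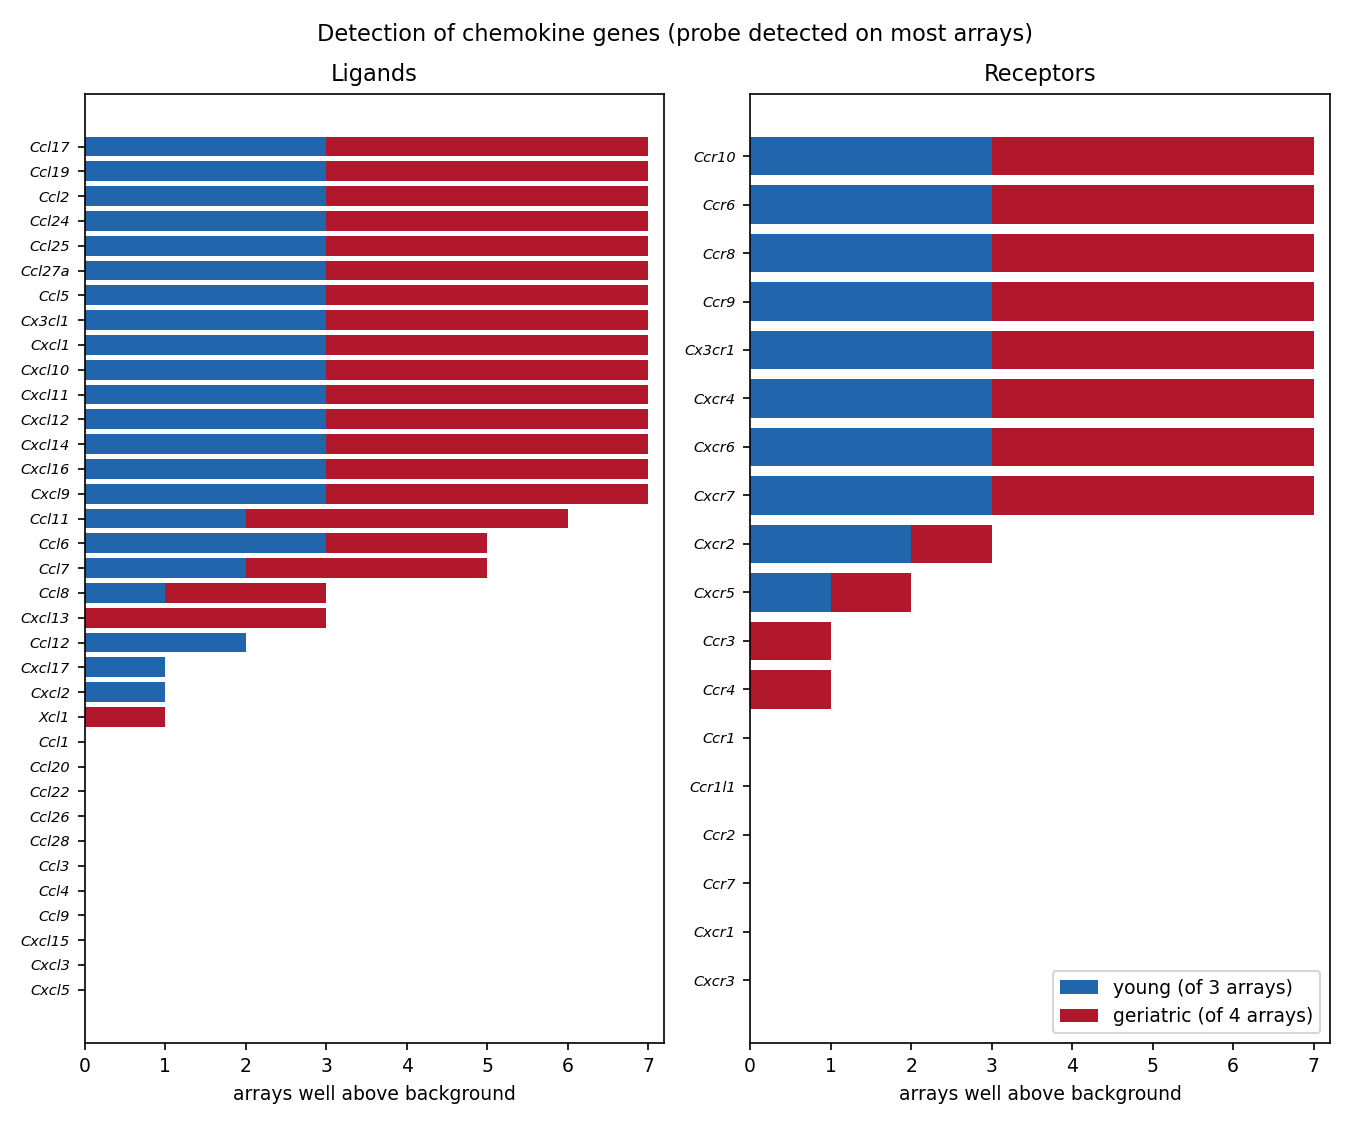
Number of arrays on which the chemokine genes named in the text were well above background, by its probe detected on most arrays, with ligands on the left and receptors on the right. Blue bars count young arrays (of 3) and red bars geriatric arrays (of 4); 15 ligands and 8 receptors reach 7 arrays.

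Several ligands were detected without a classical receptor. Ccl2 was above background on all 7 arrays and its receptor Ccr2 on 0. Ccl19 was detected on 7 arrays and Ccr7, its receptor on lymphocytes and dendritic cells, on 0. Cxcl9, Cxcl10 and Cxcl11 share the receptor Cxcr3, which was on 0 arrays. Detection of Cxcl11 is uncertain, because its probes share letters with probes of 4 and 22 other names. Cxcl10 was on all 7 arrays by 1 probe and on 6 by the other. Ccl5 was on 7 arrays and its receptor Ccr1 on 0. By contrast, for some pairs both sides were above background on all 7 arrays by at least 1 probe. These were Cxcl12 with Cxcr4 and Cxcr7 (now Ackr3), Cxcl16 with Cxcr6, Ccl25 with Ccr9, Ccl27a with Ccr10 and Cx3cl1 with Cx3cr1. A probe below background sets no lower limit on the RNA, so an undetected receptor was not measurable here rather than absent.

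The deposited probe letters were compared between probes of the array, which finds shared letters but does not show that a probe is specific. Of the 68 chemokine probes, each 60 bases long, 31 shared a run of 15 letters with a probe of another name, against 48.8% of all probes. A probe of Cxcl11 shared such runs with probes of 22 other names, a number that 0.833% of all probes reached. A stretch of 30 of its letters, bases 12 to 41 of the probe, is shown because it lies in a run of 33 letters that other probes also hold. A Ccl27a probe near the 5′ end shared runs with 2 other names, and a Ccl19 probe is shown beside it because all 3 Ccl19 probes shared none. Capitals mark letters shared with probes of other names.
Cxcl11 probe A_55_P2160387, bases 12 to 41: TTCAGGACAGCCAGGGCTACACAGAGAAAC
Ccl27a probe A_55_P2070576: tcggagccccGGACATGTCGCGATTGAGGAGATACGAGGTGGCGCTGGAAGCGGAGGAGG
Ccl19 probe A_55_P2099742: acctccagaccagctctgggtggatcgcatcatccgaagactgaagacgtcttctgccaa

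On the mm9 coordinates of the array files, the Ccl27a probe is at chromosome 4, 41720610 to 41720669 (minus strand). Those files place the Ccl19 probe at chromosome 4, 42250105 to 42250164 (plus strand). In RefSeq on GRCm38.p6 the annotated start of Ccl19 lies within 42756316 to 42756615 of that chromosome, on the minus strand. The builds differ, and the listed probe position may be that of another copy, which was not tested. The RefSeq table of GRCm38.p6 holds 3 Ccl19 pseudogenes and a second Ccl27 gene (Ccl27b), so readings named Ccl19 and Ccl27a may come from more than 1 copy.

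Of the 54 genes, 29 passed the filter of 3 arrays well above background and were tested, 20 ligands and 9 receptors. None passed limma's adjusted p of 0.05, and among all 27391 tested features 7 passed (0.0256%). Cxcl13 was above background on 0 young arrays and passed the filter through the geriatric arrays alone. It is therefore left out of the counts that follow, except where stated. Of the other 28 genes, 4 had an unadjusted limma p under 0.05 (14.3%), against 6.72% of the features above background in both groups. The samples of the groups did not overlap for 7 of the 28 (25%), against 12.4% of those features. The geriatric samples were the higher ones without overlap for 6 of the 28 (21.4%), against 6.94% of features. That is 6 of the 7 genes without overlap, and among all features without overlap the share was 56%. A log2 difference of 1 or more in size was found in 5 genes, all higher in geriatric samples (8.4% of features had such a difference in either direction).

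Ligands and receptors differed in direction as a description. The log2 difference was above 0 for 15 of 19 ligands, with a median of 0.34, and for 3 of 9 receptors, with a median of -0.14. Several of these differences were near 0 and changed sign under some of the alternative settings. Among receptors, Cxcr6 and Ccr9 did so under 4 settings each and Cxcr4 under 1. Among ligands, Ccl25 did so under 7, Cxcl11 and Cxcl16 under 2 each, and others under 1. Of the features above background in both groups 49.6% were above 0, and the median over all tested features was -0.0024. The averaged geriatric sample held the highest level of the 6 samples for 12 of the 29 tested genes, Cxcl13 among them. The share over all features was not computed. Over these 29 genes the median deviation of the averaged geriatric sample from the gene means was 0.39. It was 0.03 in each of the other geriatric samples and -0.31 to -0.03 in the young samples.

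**Figure D2:**
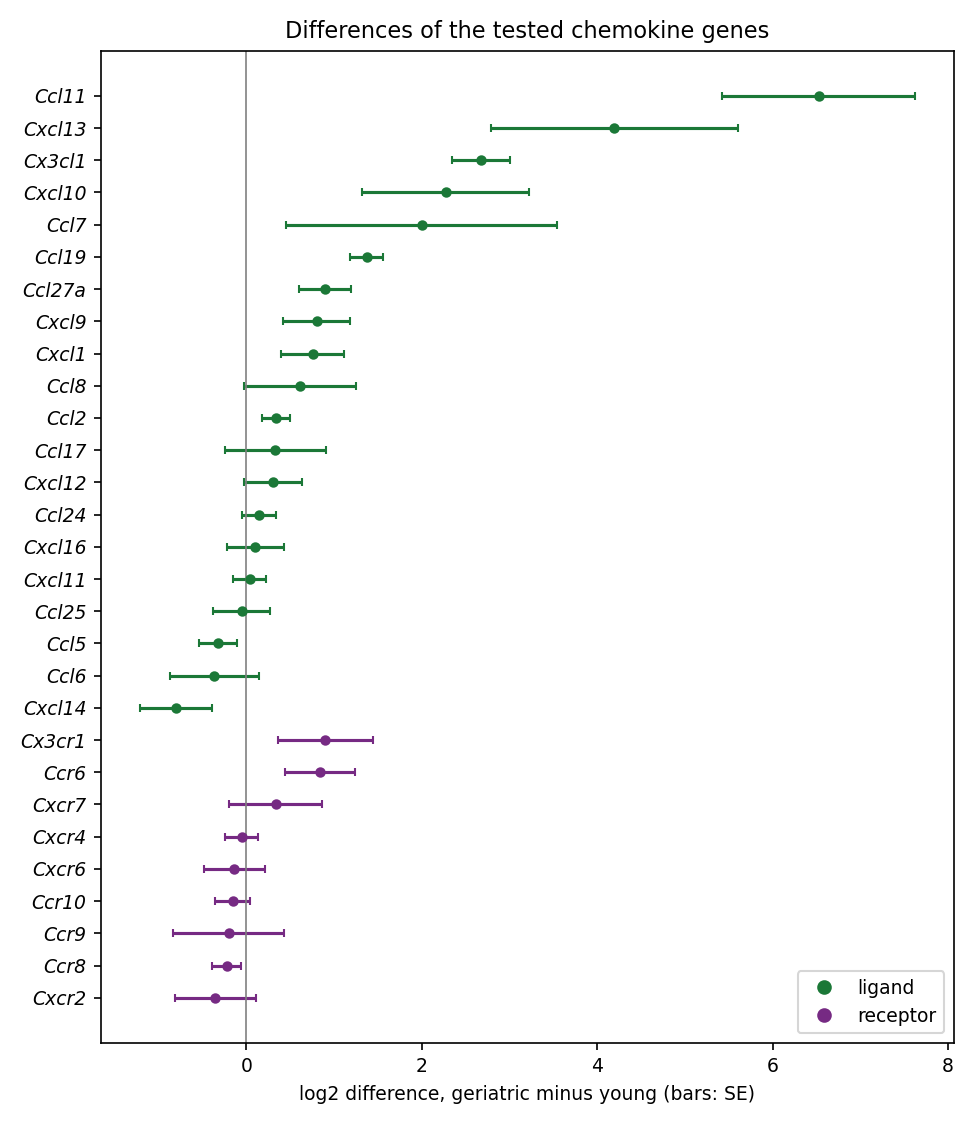
Log2 difference, geriatric minus young, of the 29 tested chemokine genes, with ligands in green and receptors in purple (points) and the limma SE (bars). The point of Cxcl13 rests on values below background in every young sample. Ligands reach 6.52 for Ccl11, and the receptors lie between -0.35 and 0.90.

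Cx3cl1 (fractalkine), a membrane-anchored ligand that is shed and that binds Cx3cr1, had the smallest p of the chemokine genes. Young samples had levels of -1.70, -1.36 and -0.54, and geriatric samples had 1.41, 1.68 and 1.33. All geriatric samples were above all young samples. The means were -1.20 ± 0.60 and 1.47 ± 0.18 (SD, n = 3), a 6.37-fold difference (log2 2.67, SE 0.33, limma adjusted p = 0.120). The processed signal was 444, 596 and 1107 on the young arrays and 3339 to 5065 on the geriatric arrays. With geriatric arrays 1 and 2 counted as separate samples the adjusted p was 0.0250, which rests on counting that RNA again. Cx3cr1 had levels of -3.70, -1.93 and -3.52 in young and -1.76, -1.96 and -2.74 in geriatric samples, which overlapped (log2 0.90, SE 0.54, limma adjusted p = 0.797). Its other probe was above background on 0 arrays. The Cx3cr1 probe read here shared 55 of its 60 letters with a probe of another name.

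Cxcl16, the other membrane-anchored ligand measured, differed by 0.10 and its receptor Cxcr6 by -0.14. Both sets of samples overlapped.

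Ccl11 (eotaxin), which attracts eosinophils through Ccr3, had the largest difference. Its level was -8.09, -3.92 and -5.34 in young samples and 1.39, 1.05 and -0.22 in geriatric samples. Every geriatric sample lay above every young one, and the young samples spread over more than 4 log2 units. The young value of -8.09 is a stand-in value below background, so that spread and the size of the difference rest partly on it. The probe was well above background on 2 of 3 young and 4 of 4 geriatric arrays. The processed signal was 5.31, 101 and 39.8 on the young arrays, and 4108, 3779, 3287 and 1141 on geriatric arrays 1 to 4. The log2 difference was 6.52 (SE 1.10, limma adjusted p = 0.254), but 4.60 in the authors' values, which moves the fold by more than 1.5 times. Leaving out 1 sample or array at a time gave log2 differences of 5.37 to 7.45. Ccr3 was above background on 1 array. Ccl24, a second eosinophil attractant, differed by 0.14.

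Ccl2, Ccl7 and Ccl8 attract monocytes and lie with Ccl11 in a cluster on chromosome 11 (81850650 to 81990227, mm9). Ccl2 was at -2.53, -2.71 and -2.39 in young and -2.24, -2.14 and -2.24 in geriatric samples. These groups did not overlap, and the difference was small (log2 0.34, SE 0.16, limma adjusted p = 0.743). Ccl7 was at -3.86, -3.89 and -8.19 in young and -5.26, -1.17 and -3.53 in geriatric samples. The groups overlapped widely (log2 2.00, SE 1.55). The young value of -8.19 is a stand-in value below background, and leaving out 1 sample or array at a time gave 0.56 to 2.97. Ccl8 differed by 0.61 and was above background on 3 arrays. Ccl5 and Ccl6, ligands of inflammatory CC receptors, differed by -0.32 and -0.37. The tested neighbours of Ccl11 in that cluster thus had differences from 0.34 to 2.00, and Ccl12 and Ccl1 were not tested.

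**Figure D3:**
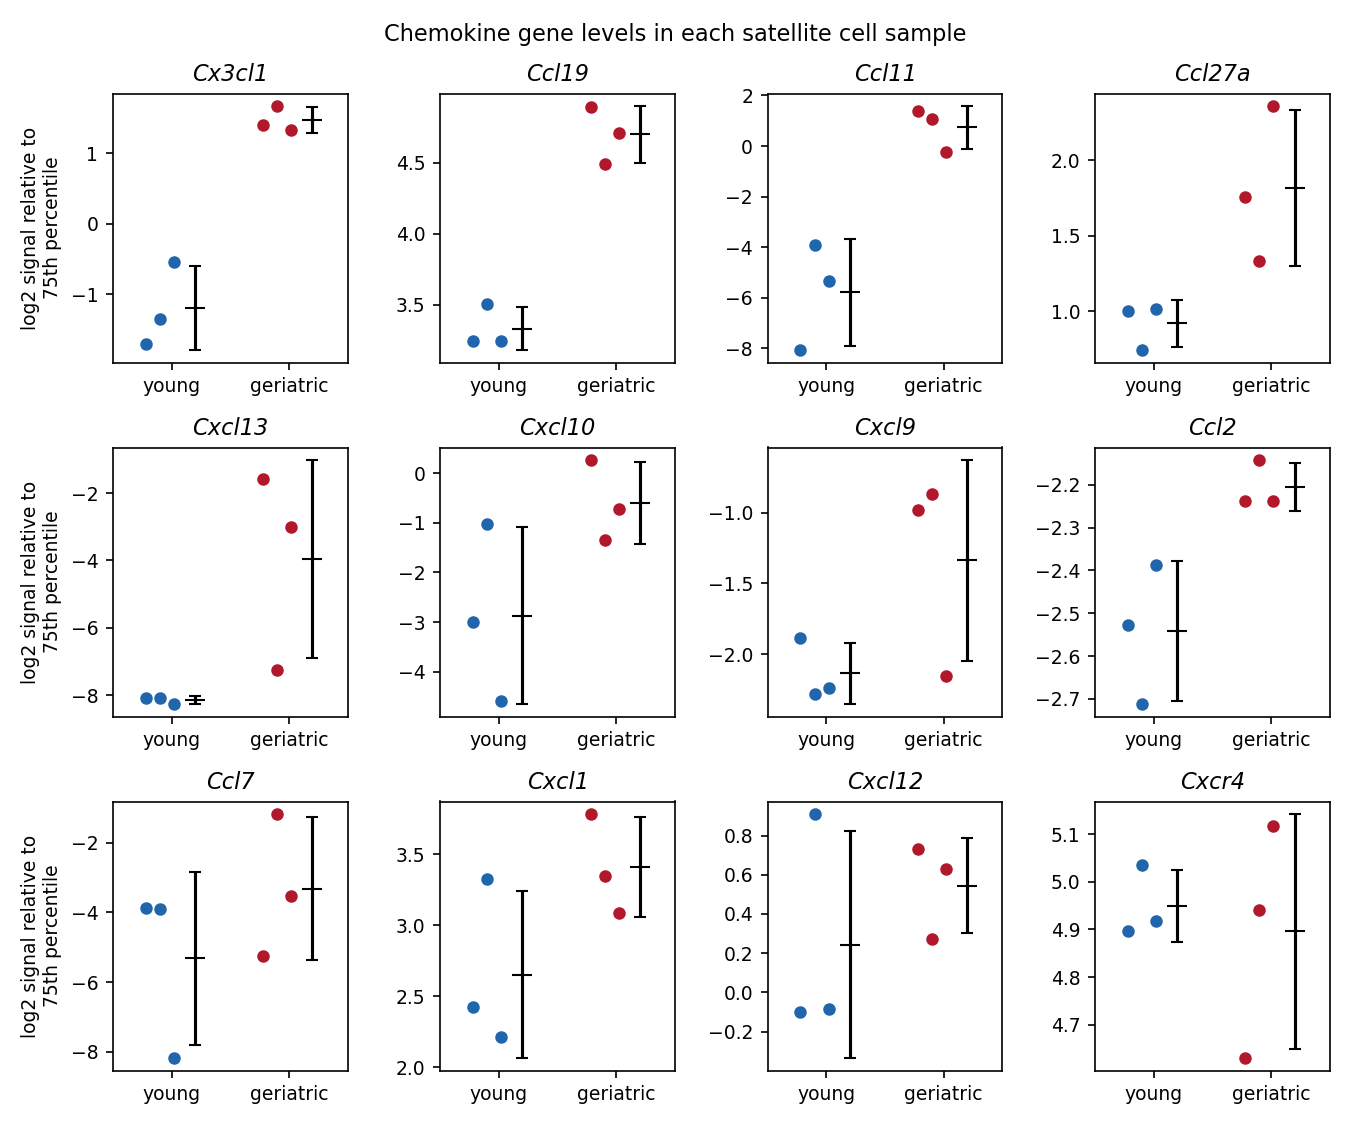
Level (log2 signal relative to the 75th percentile) of 12 chemokine genes in the 3 young (blue) and 3 geriatric (red) samples, with mean and SD in black; each panel has its own axis. The groups do not overlap for Cx3cl1, Ccl19, Ccl11, Ccl27a and Ccl2. The Cxcl13 points of all young samples and 1 geriatric sample are stand-in values below background. So is the lowest young point of Ccl11 and of Ccl7.

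Ccl19, a homeostatic ligand of lymphoid tissue, was at 3.24, 3.50 and 3.24 in young and 4.89, 4.49 and 4.71 in geriatric samples. The groups stood apart with little spread (log2 1.37, SE 0.18, 2.58-fold, limma adjusted p = 0.160). Its other probes gave 1.28 and 1.54, so all 3 had the same direction. Ccl27a, a skin-associated ligand of Ccr10, was at 1.00, 0.74 and 1.02 in young and 1.75, 1.34 and 2.36 in geriatric samples by its 5′ probe (log2 0.90, SE 0.29, limma adjusted p = 0.586). Its probes near the 3′ end gave 0.12 and 0.10, so the difference was seen with 1 of 3 probes. The 2 probes named Gm13308, a name with which it shares letters, differed by 0.43 and 0.92. Ccr10 differed by -0.16. Ccl17 and Ccl25 differed by 0.33 and -0.06. The other Ccl25 probes gave 0.96 and -0.15.

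**Figure D4:**
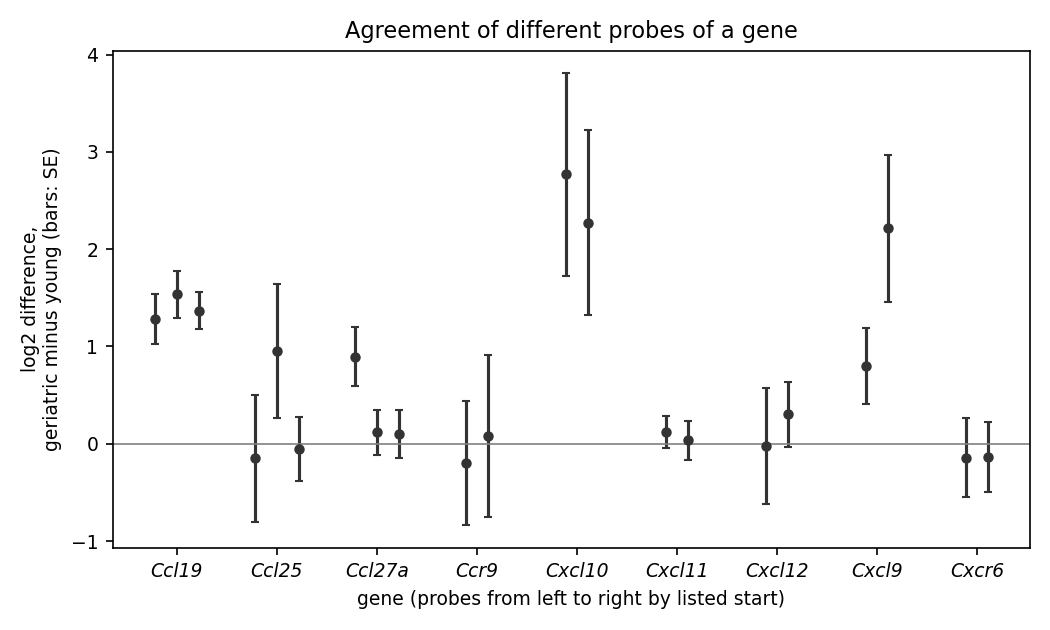
Log2 difference, geriatric minus young, for each tested probe of the genes with more than 1 tested probe, ordered within a gene by listed start in its transcript; bars are the limma SE. The 3 Ccl19 probes lie between 1.28 and 1.54, whereas the Ccl27a probes give 0.90, 0.12 and 0.10.

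Cxcl9, Cxcl10 and Cxcl11 are induced by interferons and lie side by side on chromosome 5 (92752191 to 92788699, mm9). Cxcl10 was at -3.00, -1.02 and -4.60 in young and 0.27, -1.35 and -0.72 in geriatric samples. Young sample 2 overlapped the geriatric range (log2 2.27, SE 0.95, limma adjusted p = 0.695). Leaving out 1 sample or array at a time gave 1.41 to 3.20. The array describes the source of this Cxcl10 probe as an unclassifiable cDNA clone. The other Cxcl10 probe gave 2.77. On it the sample of geriatric array 4 was at -5.17, within the young range of -6.01 to -5.02. Cxcl9 was at -1.89, -2.28 and -2.24 in young and -0.99, -0.87 and -2.16 in geriatric samples. The last of these overlapped the young samples (log2 0.80, SE 0.38, limma adjusted p = 0.738). The other Cxcl9 probe was above background on 0 young and 3 geriatric arrays, so it passed the filter through the geriatric arrays alone. Its geriatric mean was at least 1.91-fold higher, but young sample 2 (-6.30) lay above the averaged geriatric sample (-6.43). Geriatric arrays 1 and 2, averaged as 1 sample, read -7.95 and -4.91 on it. This probe is therefore no separate support for a difference. Cxcl11 differed by 0.04 and 0.12 by its probes, and the shared letters shown above leave it uncertain what they read.

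The promoter window of Cxcl10 is printed because it holds elements of both interferon and NF-kB signalling, and that of Cx3cl1 because it holds none of the motifs searched. Windows are the 300 bases around the annotated start in RefSeq on GRCm38.p6, and 39 of the 54 genes had one. Both strands were searched for the core of the interferon-stimulated response element, the GAS element TTCNNNGAA, the AP-1 element TGANTCA and the NF-kB consensus. Matches are in capitals.
Cxcl10 promoter, chr5:92348840-92349139, minus strand: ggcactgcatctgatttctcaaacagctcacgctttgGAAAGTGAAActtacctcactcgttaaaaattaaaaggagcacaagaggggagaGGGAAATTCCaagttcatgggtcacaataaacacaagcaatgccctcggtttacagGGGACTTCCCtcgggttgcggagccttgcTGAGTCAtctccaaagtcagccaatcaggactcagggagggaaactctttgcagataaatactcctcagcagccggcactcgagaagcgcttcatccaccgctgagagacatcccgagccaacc
Cxcl1 promoter, chr5:90890995-90891294, plus strand: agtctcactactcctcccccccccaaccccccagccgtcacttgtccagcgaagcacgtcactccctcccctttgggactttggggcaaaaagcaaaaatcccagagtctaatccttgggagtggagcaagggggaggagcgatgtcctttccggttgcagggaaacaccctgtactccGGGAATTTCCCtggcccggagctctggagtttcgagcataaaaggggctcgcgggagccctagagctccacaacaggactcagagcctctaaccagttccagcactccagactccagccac
Cx3cl1 promoter, chr8:94771930-94772229, plus strand: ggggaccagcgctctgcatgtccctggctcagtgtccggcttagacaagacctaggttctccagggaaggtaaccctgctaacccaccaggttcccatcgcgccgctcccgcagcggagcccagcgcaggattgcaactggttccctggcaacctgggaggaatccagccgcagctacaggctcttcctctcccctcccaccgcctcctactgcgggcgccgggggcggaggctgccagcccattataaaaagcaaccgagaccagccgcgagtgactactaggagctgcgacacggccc

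That interferon element was in 3 of the 43 chemokine windows (Ccl19, Cxcl10 and Cxcl14), against 3.44% of all 32851 windows. The NF-kB consensus was in 9 (Ccl9, Ccl20, Ccl27a, Ccr3, Ccr6, Cxcl1, Cxcl2, Cxcl3 and Cxcl10), against 4.51%. The AP-1 element was in 8 and the GAS element in 4, against 7.81% and 8.3%. The Cxcl1 matches overlap in 1 run of letters. A match is a description of the letters and not a bound site.

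Cxcl1, a neutrophil attractant, was at 2.42, 3.32 and 2.21 in young and 3.79, 3.35 and 3.09 in geriatric samples. The groups overlapped (log2 0.76, SE 0.36, limma adjusted p = 0.738). Its neighbours Cxcl3, Cxcl5 and Cxcl15 were on 0 arrays and Cxcl2 on 1. The neutrophil receptor Cxcr2 differed by -0.35.

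Cxcl12 and its receptors differed little between the groups. Cxcl12 was at -0.10, 0.91 and -0.08 in young and 0.73, 0.27 and 0.63 in geriatric samples, which overlapped (log2 0.30, SE 0.33, limma adjusted p = 0.904). The other Cxcl12 probe, of another transcript variant and also above background on 7 arrays, gave -0.02. Cxcr4 was at 4.90, 5.03 and 4.92 in young and 4.63, 4.94 and 5.12 in geriatric samples (log2 -0.05, SE 0.19, limma adjusted p = 0.974). Cxcr7, a scavenging receptor of Cxcl12, was at -1.37, -1.002 and -1.64 in young and -0.37, -0.46 and -2.18 in geriatric samples (log2 0.33, SE 0.53, limma adjusted p = 0.930). None of these p-values shows that the levels were the same. Cxcl14 differed by -0.81.

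Cxcl13, a B cell attractant that acts through Cxcr5, was above background on 0 of 3 young and 3 of 4 geriatric arrays. The processed signal was 5.18 to 5.66 on the young arrays, where it is a stand-in value, and 502, 495, 10.5 and 165 on geriatric arrays 1 to 4. Young samples had levels of -8.08, -8.08 and -8.28, and geriatric samples had -1.59, -7.24 and -3.01. Those of the young samples and of the geriatric sample at -7.24 were below background and have no order. On this scale the geriatric mean was at least 3.82-fold higher (limma adjusted p = 0.596), whereas the log2 difference was 1.65 with normexp and 1.62 in the authors' values, both a smaller fold.

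Among receptors of lymphocytes, Ccr6 was at -4.88, -4.98 and -4.62 in young and -3.11, -4.47 and -4.38 in geriatric samples. These did not overlap (log2 0.84, SE 0.40, limma adjusted p = 0.738). Ccr8 was the gene of the 7 without overlap whose geriatric samples were the lower ones (log2 -0.23), and its other probe was above background on 0 arrays. Ccr9 differed by -0.20, and its other probe gave 0.08.

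Genes around the chemokine system were read from lists, and no member of any passed the limma threshold. Of 8 tested chemokine-related genes outside the name rule, 7 were higher. Rarres2 (chemerin), an attractant of another receptor family, differed by 1.54 and Cd74, a receptor of the cytokine MIF, by 1.57, whereas Darc, a chemokine scavenger, differed by -0.88. In receptor signalling 22 of 37 were higher, with Gnai1 at 1.77 and Dock2 at 0.91, and Arrb1 at -0.75 and Adrbk2 at -0.89. Of 35 inducers 15 were higher, with Irf1 at 1.05 and Il6 at 2.54, and Rel at -1.47 and Il1r1 at -0.76. Il6 was above background on 1 of 3 young and 3 of 4 geriatric arrays, and Rel on 3 of 7 arrays. The groups overlapped for both, and their differences rest partly on values near background. Of 16 proteases and binding partners 12 were higher, with Tnfaip6 at 0.99 and Bgn at 0.49, and Mmp14 at -0.35 and Hspg2 at -0.15.

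Values of markers of other cells are given beside these differences, and their part in them was not tested. The pericyte marker Pdgfrb, a growth factor receptor, was at -3.88, -3.35 and -3.64 in young and -1.48, -1.45 and -1.22 in geriatric samples. This difference (log2 2.24, SE 0.20, limma adjusted p = 0.0603) had a smaller p than any chemokine gene, and 6 of 10 markers of its list were higher. The B cell marker Cd79a differed by 1.27 (SE 0.23, limma adjusted p = 0.275), also with no overlap. Of 11 tested markers of fibro-adipogenic progenitors, the connective tissue cells of muscle, 9 were higher. Their summed level was 33.7 to 44.7 in young and 44.8 to 54.0 in geriatric samples, in units of the 75th percentile signal. Without Col3a1, the brightest of them, the sums were 5.80 to 9.30 and 9.97 to 26.6. Much of the remaining sum was 1 gene, Dcn. It was at 2.47, 2.56 and 1.54 in young and 2.55, 4.37 and 4.32 in geriatric samples. Dpt and Dcn differed by 0.75 and 1.56, Col3a1 and Col1a1 by -0.13 and -0.01, and Pdgfra, their defining receptor, was above background on 0 arrays. Of 10 macrophage markers 7 were higher (summed 92.4 to 102 in young and 96.9 to 115 in geriatric samples), and C1qa, Lyz2 and Mrc1 were above background on 0 arrays. Most of that sum was 1 probe, that of Itgam, which encodes the negative gate CD11b. Itgam was at 6.44 to 6.78 in the 6 samples, and without it the sums were 5.08 to 5.77 and 5.43 to 5.71. Of 10 endothelial markers 6 were higher (8.06 to 9.78 and 8.77 to 12.3, and 1.29 to 1.55 and 1.28 to 3.81 without Tek). Their mean deviation from the gene means was 1.53 in the sample of geriatric array 4. It was -0.72 and -0.34 in the other geriatric samples, and -0.37, -0.42 and 0.33 in the young samples. Cx3cr1, Cxcr4 and Cxcr2 stand in marker lists as well as among the chemokine genes.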

How the data were processed

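The authors quantified the spot intensity values in Feature Extraction (version 10.7.3.1, per the file headers), which subtracted background and gave stand-in values to spots near it. The deposited value table is on a log2 scale with a median of 8.02 per array and served as an alternative. Its software and background correction are unknown here. From the processed signal, log2 minus the array's 75th percentile was computed. Control and outlier spots were left out (124 to 229 outliers per array), and spots of a probe were averaged. A gene was read by its brightest probe among those well above background on at least 3 of 7 arrays. Groups were compared with limma 3.58.1 in R 4.3.3 with the package data.table (version 1.17.8) (2-sided, Benjamini-Hochberg over 27391 features, threshold 0.05), tested on simulated data. Figures used Python 3.11.15 and matplotlib 3.10.9.

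Chemokine genes are named by detection class, except 1 that is not reported here. Values in every sample are given for the 10 smallest p-values and for Cxcl12, Cxcr4, Cxcr7, Ccl2, Ccl7, Cxcl1, Cxcl9, Cxcl10, Cx3cl1, Ccr2 and Cx3cr1 where tested. The members and lists were chosen with earlier results of these data known. "At least" folds set the brighter group against the detection limit of the dimmer one. Alternatives were the background correction, normalization, filters, probe choice, blocks and left-out replicates.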

Additional observations from a re-analysis of the deposited data

How the results depend on the processing

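No chemokine gene passed under any setting but 1. With geriatric arrays 1 and 2 counted as 2 samples, 2 passed (Cx3cl1, limma adjusted p = 0.0250, and Ccl19, 0.0342), and 64 features passed instead of 7. The count of features was 4 with normexp background correction and with the authors' values, 2 with the filter of all 7 arrays, and 0 with the slide row as a block. Numbers in the descriptions did not pair the samples (correlations of deviations -0.04, 0.03 and 0.04), and the replicate block gave 0 features and 0 chemokine genes. Leaving out single replicates gave 0 to 8 features, 0 chemokine genes and medians of 0.18 to 0.40. The median over the tested chemokine genes was 0.33 and lay between 0.18 and 0.46 under the settings run. It was 0.32 without Cxcl11, Ccl19 and Ccl27a, and also without Cxcl13, both choices made after seeing the data. Row 2 of the slide held only geriatric arrays, and row 1 held the young arrays and 1 geriatric array, so row and group could hardly be told apart. The value within row 1, of that 1 geriatric array, was 0.46. With normexp the difference was 4.62 for Ccl11 and 1.65 for Cxcl13, and in the authors' values 4.60 and 1.62. Signals near background limit Ccl6, Ccl7, Ccl8, Ccl11, Cxcl13 and Cxcr2.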
